A study of Mus musculus with 16 samples.

Results

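The genes described here are 38 protein-coding genes of vesicle trafficking and secretion, out of 2438 genes that the authors listed as different between the duodenal epithelium of KO and flox mice. They were chosen by name alone: a symbol that begins with Rab, Arf, Vps, Snx, Tmed, Copa, Copb, Cope, Copg, Copz or Sar1, or with Sec and a digit. Each was then given a role from textbook knowledge, which made 15 of them endoplasmic reticulum (ER) to Golgi genes and 15 endosomal genes, with 8 left over. The KO group was 7 libraries, replicates 1 to 5, 7 and 8, from mice whose intestinal epithelium lacked Ephb4. The flox group was 9 libraries, replicates 1 to 7, 9 and 10, from mice homozygous for the floxed Ephb4 allele. Mice of both groups were put on high fat diet at 8 weeks of age and stayed on it for 19 weeks, so no chow-fed mouse was analysed here. No source used here names the Cre line or promoter behind the deletion. The labels name the sample duodenal epithelium, whereas the design text speaks of proximal small intestine tissue.

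Proteins that leave the cell are made at the ER and carried to the Golgi in vesicles coated with COPII, while COPI-coated vesicles carry proteins back, and small GTPases of the Sar1, Arf and Rab families switch each step on. Endosomes run the other way: material taken in at the cell surface reaches early endosomes marked by Rab5, from which it is recycled, returned to the Golgi by retromer and sorting nexins, or packed into multivesicular bodies by the ESCRT machinery and degraded. Absorptive cells of the duodenum depend on both routes. They export dietary fat as chylomicrons that pass from the ER to the Golgi, and they keep a microvillus membrane stocked with transporters and enzymes. In humans, loss of the COPII GTPase SAR1B causes chylomicron retention disease. The mouse gene Sar1b was not among the listed genes.

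Promoter sequences of 4 members are printed because these had the lowest adjusted p in the authors' deposited table for their class and direction, among the 30 members with a promoter in the RefSeq table used here (GRCm38.p6). Tmed5 and Rab1b stand for the higher and lower ER to Golgi genes, and Snx5 and Rab5c for the higher and lower endosomal genes. Each window of 300 bases runs from 250 bases before the gene's start to 50 bases after it, 5′ to 3′ on the gene's own strand. Capitals mark CCACG, read on either strand, and the E-box core CACGTG, and the 2 motifs can share letters. The Tmed5 window lies at chr5:108132571-108132870 (minus strand), that of Rab1b at chr19:5106947-5107246 (minus strand), that of Snx5 at chr2:144270523-144270822 (minus strand) and that of Rab5c at chr11:100738166-100738465 (minus strand).
Tmed5: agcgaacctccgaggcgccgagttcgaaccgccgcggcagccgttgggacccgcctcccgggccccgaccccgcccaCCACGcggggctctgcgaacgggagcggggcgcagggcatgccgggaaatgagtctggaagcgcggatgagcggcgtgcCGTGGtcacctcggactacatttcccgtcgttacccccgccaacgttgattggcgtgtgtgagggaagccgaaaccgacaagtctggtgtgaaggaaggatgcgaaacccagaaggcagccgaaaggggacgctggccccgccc
Rab1b: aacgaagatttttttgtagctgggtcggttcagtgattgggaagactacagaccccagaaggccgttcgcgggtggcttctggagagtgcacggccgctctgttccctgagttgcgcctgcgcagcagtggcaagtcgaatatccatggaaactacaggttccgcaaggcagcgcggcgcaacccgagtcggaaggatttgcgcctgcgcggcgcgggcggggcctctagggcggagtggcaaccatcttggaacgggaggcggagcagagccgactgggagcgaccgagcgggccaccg
Snx5: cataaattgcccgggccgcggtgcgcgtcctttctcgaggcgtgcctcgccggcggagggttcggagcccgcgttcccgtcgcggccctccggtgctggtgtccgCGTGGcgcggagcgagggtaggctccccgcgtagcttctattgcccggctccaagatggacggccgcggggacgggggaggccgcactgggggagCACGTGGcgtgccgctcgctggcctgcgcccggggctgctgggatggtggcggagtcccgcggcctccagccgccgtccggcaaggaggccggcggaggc
Rab5c: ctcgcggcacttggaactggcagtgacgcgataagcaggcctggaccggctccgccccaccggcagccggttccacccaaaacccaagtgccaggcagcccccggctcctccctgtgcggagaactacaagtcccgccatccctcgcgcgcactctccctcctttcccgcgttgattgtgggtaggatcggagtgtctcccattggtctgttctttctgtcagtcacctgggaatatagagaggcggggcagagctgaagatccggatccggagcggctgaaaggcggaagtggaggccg
The Tmed5 window holds 2 CCACG matches on either strand. That of Snx5 holds 2 CCACG matches and 1 CACGTG match, with 1 of the CCACG matches overlapping the CACGTG, and the RefSeq start within it lies 334 bases from the gene start in the deposited table. The windows of Rab1b and Rab5c hold neither.

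Values are read counts that the authors divided by a size factor per library, called normalised counts here, and each set of 3 values gives the lowest, the median and the highest library of a group. The deposited table holds only genes with an adjusted p under 0.05 in the authors' own test on these libraries, so every member differs by that measure, and the tests below are no independent evidence. Listed genes held between 3592468 and 4555872 reads per KO library and between 4237178 and 5316273 reads per flox library, and the total depth is unknown. Ephb4 (chr5:137350109-137378669, plus strand, GRCm38) had 23.3, 28.5 and 84.7 normalised counts in KO libraries, against 103, 162 and 354 in flox libraries, with no overlap (exact permutation p = 0.000175, two-sided, the smallest that 11440 splits can give). Of 20 epithelial markers, 8 were listed, all lower in KO, with sums of 381250 to 623138 in KO libraries and 581734 to 825726 in flox libraries, so they were abundant in every library. Of 50 non-epithelial markers (immune cells, fibroblasts, muscle, vessels), 10 were listed, every one higher in KO, with sums of 788 to 2946 (median 1958) in KO libraries and 676 to 1634 (median 788) in flox libraries, and of these Lum was at 0 in some libraries. All but Ptprc of these 10 had a mean under 200 normalised counts, and the 8 epithelial markers had means over 1000. Among all listed genes 9.54% were lower in KO below a mean of 50, 16.1% from 50 to 200 and 92.7% from 1000 up. The shares of markers listed stand against 14.8% of the 16488 genes that the authors adjusted over. Of 34 pancreatic enzyme genes, 23 were listed, all lower in KO. Without Spink1, Clps and Cela1, their sums were 54.7 to 1270 in KO libraries and 45.7 to 128229 in flox libraries, and 16 of the 23 were at 0 in some library. In flox replicates 4, 6, 7, 9 and 10 that sum was over 10 times the KO median, as it was in KO replicate 7, which had the KO maximum. In bulk RNA, fewer cells of a type and less RNA per cell cannot be told apart.

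Most listed trafficking genes were lower in KO than in flox, by small amounts, and the ER to Golgi and endosomal genes had the same split of directions. Of the 38 genes, the authors' deposited table gave 31 as lower and 7 higher, against a background of 14.8% of 16488 genes listed, 7.81% lower and 6.97% higher. Of all 2247 listed protein-coding genes, 1233 (54.9%) were lower, and of the 38 members 81.6%. These shares are not matched for abundance. The median mean level was 961 normalised counts for the members and 482 for the listed protein-coding genes. Among all listed genes 712 of 768 (92.7%) were lower from a mean of 1000 up, as were 18 of 19 members. From 200 to 1000 it was 448 of 679 (66.0%), and 12 of 15 members. Both the ER to Golgi and the endosomal genes had 12 lower and 3 higher. In the authors' deposited table the median log2 fold change was -0.27 for ER to Golgi genes and -0.30 for endosomal genes, against -0.25 for all listed protein-coding genes. Only Rab6b passed an absolute log2 fold change of 1 there. Every gene in these medians had passed the authors' threshold on these libraries, so medians of similar size were partly fixed in advance. Whether the classes differ was not tested.

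limma on log2(normalised count + 1), with Benjamini-Hochberg adjustment over 16488 genes and an adjusted p under 0.05 as the threshold, called 23 of the 38 members, 19 lower and 4 higher. The same fit called 54.3% of all 2339 listed genes fitted, 35.1% lower and 19.2% higher. Among ER to Golgi genes 8 were called (7 lower, 1 higher), and among endosomal genes 9 (7 lower, 2 higher). On whole reads recovered from the normalised counts, edgeR called 8 and 9 of them, against 56.2% of all listed genes, and DESeq2 14 and 15, against 91.8%. The words rose and fell are used below only for genes that limma called. KO and flox libraries did not overlap for 4 lower members, Sec14l2, Rab5c, Rab11fip1 and Arf3, and for 1 higher member, Snx2, where 5.33% and 1.93% of all listed genes did so in the lower and the higher direction, 7.26% in all. Calls of Rab11fip1, Rab1b, Rab5c, Rab5if, Sec11c, Sec14l2, Snx2 and Tmed5 held whichever of the 16 libraries was left out. The matching count over all listed genes is not given here.

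Without the 5 flox libraries that held pancreatic transcripts, the direction held for all 38 members and the medians were -0.29 for ER to Golgi genes and -0.29 for endosomal genes, but limma called none of them at an adjusted p under 0.05, with 10 of 15 ER to Golgi and 13 of 15 endosomal genes at an unadjusted p under 0.05. The same fit called 0.47% of all listed genes, and 1708 of 2341 listed genes had an unadjusted p under 0.05. With KO replicate 7 left out as well, every direction still held and limma called no member (0.3% of all listed genes). There 10 ER to Golgi and 9 endosomal genes had an unadjusted p under 0.05, as did 1480 of 2331 listed genes. With the level of the 10 listed non-epithelial markers as a covariate, limma called none (0.299% of all listed genes), and the medians were -0.15 and -0.13. In each class 1 gene had an unadjusted p under 0.05, as did 585 of 2339 listed genes. All 10 markers were listed for differing between the groups, every one higher in KO. The covariate therefore follows the groups, and a loss of calls was partly fixed in advance. Leaving out KO replicate 1, KO replicate 7 or flox replicate 3 alone lowered the ER to Golgi calls to 2 each, and leaving out KO replicate 5, flox replicate 1 or flox replicate 10 lowered them to 3, 5 and 4. For endosomal genes the counts were 4 without KO replicate 1, 5 without KO replicate 5, 3 without KO replicate 7, 5 without flox replicate 3 and 5 without flox replicate 10. Over all listed genes the calls went down too, from 54.3% with all 16 libraries. They were 27.9%, 26.6% and 22.2% without KO replicates 1, 5 and 7. Without flox replicates 1, 3 and 10 they were 42.2%, 26.2% and 27.6%. Scaling the libraries on the listed genes alone, by TMM, kept every direction but left few falls called. It called 1 ER to Golgi gene, higher in KO, and 4 endosomal genes, 3 higher and 1 lower. Of all members it called 5 higher and 2 lower, and of 2339 listed genes 912, 723 higher and 189 lower.

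**Figure D1:**
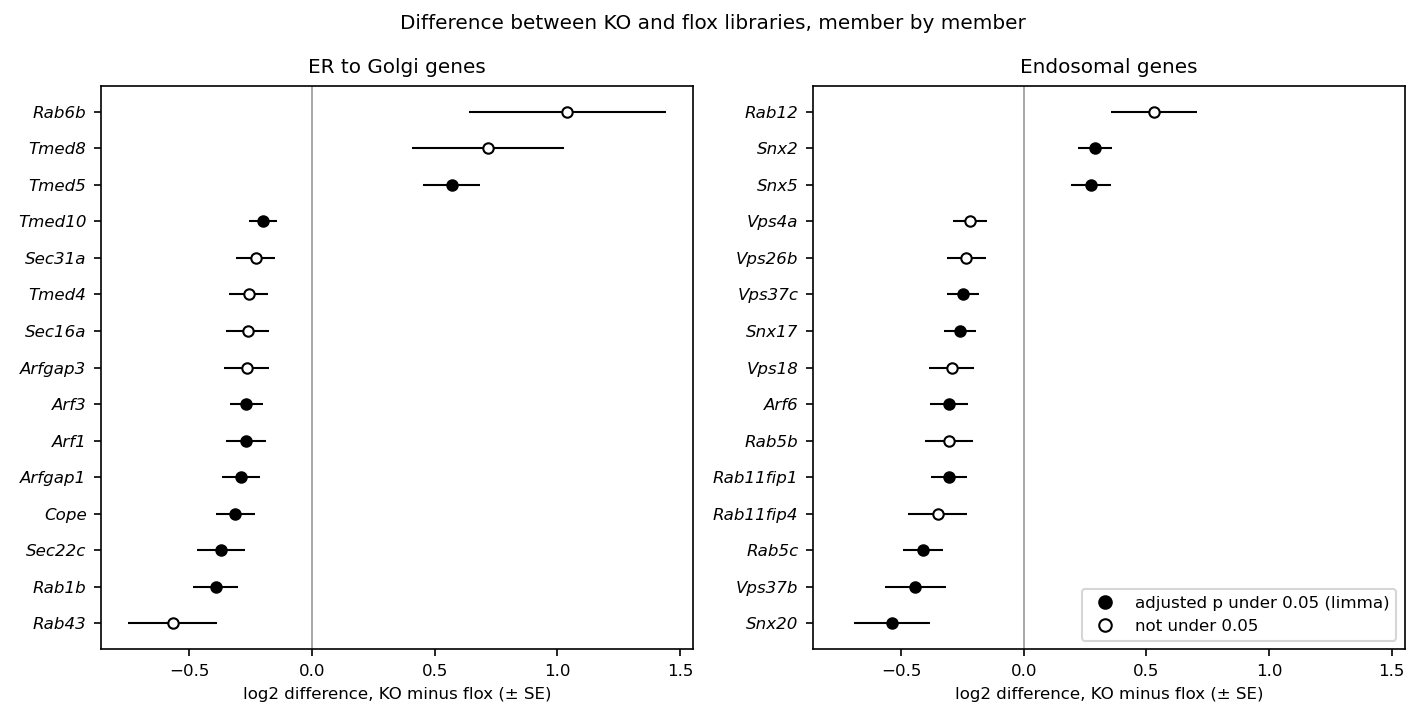
Log2 difference between KO and flox libraries from limma (x axis, KO minus flox, on the log2(normalised count + 1) scale) for each ER to Golgi gene (left) and each endosomal gene (right), with bars of 1 standard error. Filled points had an adjusted p under 0.05. In both panels 12 genes lie below 0 and 3 above it, and the widest bars belong to the low-count genes Rab6b and Tmed8.

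Of 14 annotated COPII coat genes 2 were listed, Sec31a and Sec16a, and of 8 COPI genes 1, Cope. All 3 were lower in KO in the authors' deposited table, and limma called Cope alone. Sec31a (chr5:100361649-100416234, minus strand), which forms the outer cage of COPII, had 7212, 8203 and 9196 normalised counts in KO libraries, against 8629, 9487 and 12390.0 in flox libraries. The groups overlapped by 2 KO libraries that lay above the lowest flox library, and flox replicate 1 stood apart at the top. Its difference was -0.23 ± 0.08 (SE), which limma did not call (Benjamini-Hochberg adjusted p = 0.0802). Sec16a (chr2:26409431-26445216, minus strand), the scaffold of ER exit sites, had 1841, 1977 and 2238 in KO libraries and 1923, 2485 and 3182 in flox libraries. Only 1 KO library lay below every flox library, and limma gave -0.26 ± 0.09 (SE) (adjusted p = 0.0679). Cope (chr8:70302518-70312993, plus strand), the epsilon subunit of the COPI coat, fell: it had 1766, 2245 and 2453 normalised counts in KO libraries, against 2253, 2673 and 3162 in flox libraries. This was 1.24-fold lower in KO, -0.31 ± 0.08 (SE) (limma adjusted p = 0.0269), and every KO library was below the flox median. After the trend of each library with GC content, fitted to listed genes alone, was removed, its difference was -0.05 and limma no longer called it.

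Arf GTPases recruit COPI to Golgi membranes, and Arf GTPase-activating proteins release the coat. Of 8 annotated genes of these kinds 4 were listed, all 4 lower in KO, and limma called 3 of them. Arf1 (chr11:59211412-59228270, minus strand) had the highest level per kilobase of the 38 members, 5264 normalised counts per kilobase. It had 8430.4, 9786 and 11536 normalised counts in KO libraries, against 10443, 11383 and 13493 in flox libraries. Of the 7 KO libraries, 4 lay below every flox library, and limma called a log2 difference of -0.27 ± 0.08 (SE) (adjusted p = 0.0498), just inside the threshold. That call held in 3 of the 16 fits that each left out 1 library. Arf3 (chr15:98736634-98763214, minus strand), its relative at the trans-Golgi, named after its values were seen, had 1792, 2146 and 2281 in KO libraries and 2314, 2423 and 2819.6 in flox libraries, with no overlap between the groups. Arf3 fell with -0.27 ± 0.07 (SE) on the log2 scale (limma adjusted p = 0.0249). Arfgap1, which also fell, and Arfgap3, which was not called, had differences of -0.29 ± 0.08 (SE) (limma adjusted p = 0.0309) and -0.27 ± 0.09 (SE) (limma adjusted p = 0.0783). Arf1 and Arf3 are paralogs, and no source used here says how reads that fit both were counted.

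The p24 family, cargo receptors that cycle between the ER and the Golgi, split by direction, with 2 of its 4 listed genes higher in KO and 2 lower, out of 11 annotated. Tmed5 (chr5:108106366-108132620, minus strand) rose the most among called members: it had 212, 262 and 285 normalised counts in KO libraries, against 139.7, 160.1 and 237 in flox libraries. All 7 KO libraries were above the flox median and 6 above every flox library, a difference of 0.57 ± 0.12 (SE) that was 1.47-fold higher in KO (limma adjusted p = 0.0104). After the trend of each library with GC content was removed, its difference turned to -0.07. Tmed8 (chr12:87166237-87200454, minus strand) was low, with 29.9, 78.8 and 147 in KO libraries and 19.2, 44.2 and 73.8 in flox libraries. The ranges overlapped, limma gave 0.72 ± 0.31 (SE) (adjusted p = 0.235), and its difference was -0.49 with the non-epithelial marker level as a covariate. Tmed4 (chr11:6270369-6274870, minus strand), second in level per kilobase at 2260.0, had 3841, 4628 and 5065 normalised counts in KO libraries, against 4426, 5445 and 5851 in flox libraries. That difference of -0.26 ± 0.08 (SE) was not called by limma (adjusted p = 0.0519). Tmed10 (chr12:85340614-85374847, minus strand), its delta-class member, fell by a small amount and varied little within groups: it had 2108, 2408 and 2615 in KO libraries and 2608, 2745 and 2939 in flox libraries. Its difference was -0.20 ± 0.06 (SE) (limma adjusted p = 0.0435), and 6 KO libraries lay below every flox library. With the GC trend removed the difference of Tmed10 was larger, -0.54.

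Rab GTPases of the ER and Golgi gave 3 listed genes of 10. Rab1b (chr19:5099207-5106996, minus strand), which directs ER to Golgi tethering, had 1964, 2173 and 3015 normalised counts in KO libraries, against 2718, 3031 and 3663 in flox libraries. Of 7 KO libraries 5 were below every flox library, and the log2 difference was -0.39 ± 0.09 (SE), 1.30-fold lower in KO (limma adjusted p = 0.0189). With the GC trend removed the difference was 0.03. Rab43 (chr6:87788853-87812164, minus strand), a Golgi Rab, had 118, 127 and 207 in KO libraries and 129, 219.7 and 355 in flox libraries, a difference of -0.57 ± 0.18 (SE) that limma did not call (adjusted p = 0.0598). Of its exon bases 75.4% are shared on the same strand with Gm45140, and reads of the 2 genes cannot be told apart there. Rab6b (chr9:103111787-103185276, plus strand), a Rab of retrograde Golgi transport, was the lowest member, with 6.04, 31.4 and 65.9 in KO libraries and 5.73, 9.56 and 20.8 in flox libraries. Its difference of 1.04 ± 0.40 (SE) was not called by limma (adjusted p = 0.135), and with the marker covariate it was -0.24. Sec22c (chr9:121680045-121705490, minus strand), a Sec22 relative of the ER, fell: it had 903, 1253 and 1345 in KO libraries and 1280.4, 1615 and 1825 in flox libraries, and 6 KO libraries were below every flox library. Its difference was -0.37 ± 0.10 (SE) (limma adjusted p = 0.031).

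**Figure D2:**
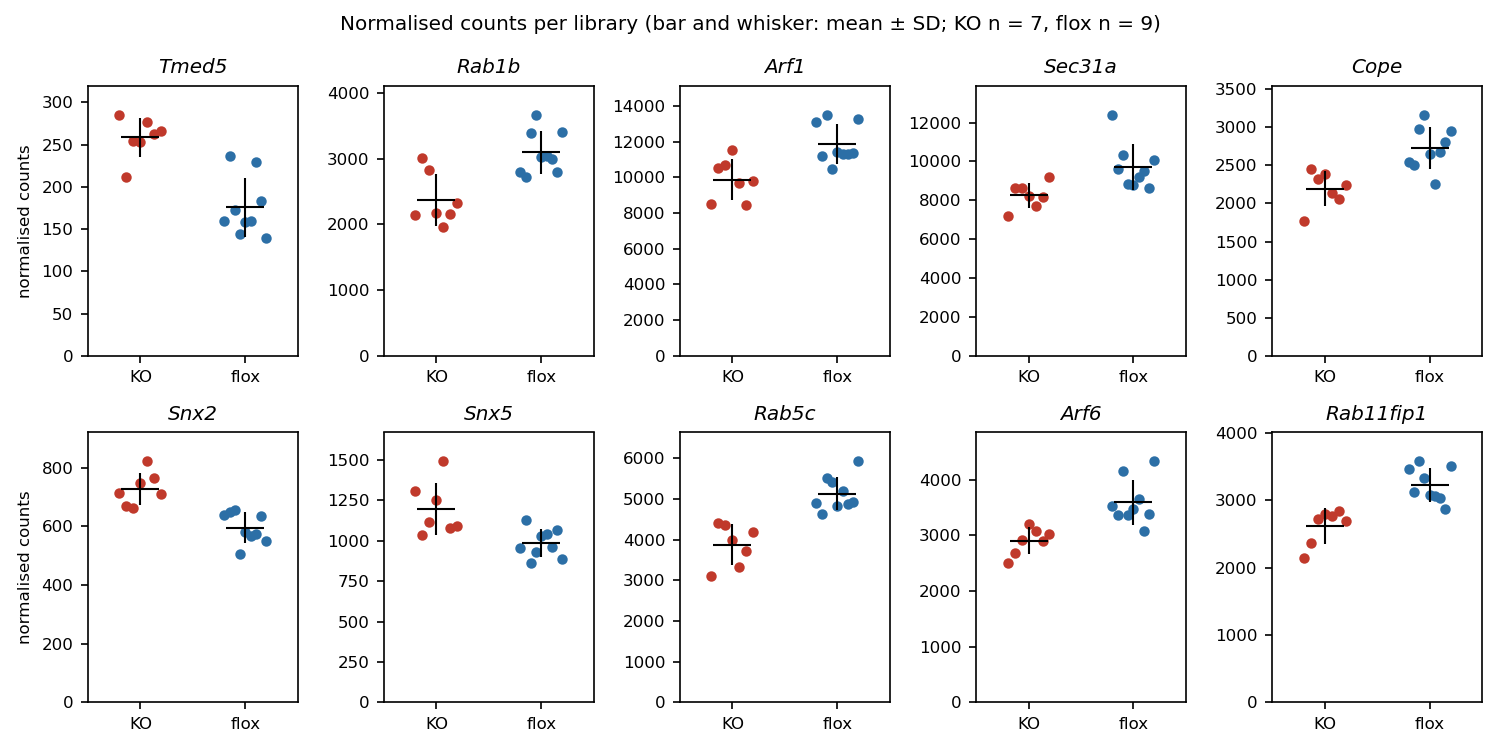
Normalised counts in each library (points) for 5 ER to Golgi genes (top) and 5 endosomal genes (bottom), KO libraries left and flox libraries right, with the mean (bar) and SD (whisker) of each group, 7 KO and 9 flox. Each y axis starts at 0. Tmed5, Snx2 and Snx5 were higher in KO, the other 7 lower, and the shifts are small beside the overall levels.

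Endosomal Rab GTPases gave 3 listed genes of 23, and the early endosome ones were lower in KO. Rab5c (chr11:100715009-100738215, minus strand), which governs fusion of early endosomes, had 3118, 3987 and 4414 normalised counts in KO libraries, against 4618, 4915 and 5921 in flox libraries. No KO library reached the lowest flox library, and the log2 difference was -0.41 ± 0.08 (SE), 1.33-fold lower in KO (limma adjusted p = 0.0101). Its paralog Rab5b had a difference of -0.30 ± 0.10 (SE), not called by limma (adjusted p = 0.0642). Rab12 (chr17:66494512-66519729, minus strand), which sends receptors from recycling endosomes to lysosomes, had 84.6, 102 and 186 in KO libraries and 45.6, 77.8 and 97.7 in flox libraries. Its KO values were all above the flox median and KO replicate 1 stood far above the rest, with a difference of 0.53 ± 0.17 (SE) that limma did not call (adjusted p = 0.0657).

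Of 9 annotated effectors and regulators of endosomal Rabs 2 were listed, both lower in KO, and limma called 1. Rab11fip1 (chr8:27138773-27174646, minus strand), an effector of the recycling GTPase Rab11, had 2141, 2717 and 2849.7 normalised counts in KO libraries, against 2874, 3126 and 3579 in flox libraries, and was named after its values were seen. The groups did not overlap, and the log2 difference was -0.30 ± 0.07 (SE) (limma adjusted p = 0.019). Rab11fip4 (chr11:79591212-79698023, plus strand), another effector, had 366, 417 and 554 in KO libraries and 425, 543 and 844 in flox libraries, with flox replicate 4 far above the others and a difference of -0.35 ± 0.12 (SE) (limma adjusted p = 0.0768). Arf6 (chr12:69372150-69373783, plus strand), the Arf GTPase of the cell surface and recycling endosomes, came after Tmed4 in level per kilobase at 2145. It had 2501, 2917 and 3208 normalised counts in KO libraries, against 3087, 3471 and 4329 in flox libraries, and 6 KO libraries were below every flox library. The log2 difference was -0.30 ± 0.08 (SE) (limma adjusted p = 0.024), with 0.19 after the GC trend was removed. Of its exon bases 13.6% lie opposite Gm9887, a gene that the authors' deposited table lists at a log2 fold change of -1.33, and whether reads were counted by strand is not stated.

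The ESCRT machinery, which sorts receptors into multivesicular bodies, gave 3 listed genes of 9, all lower in KO. Vps37b (chr5:124004641-124032270, minus strand), a subunit of ESCRT-I, had 154, 199.7 and 305 normalised counts in KO libraries, against 242, 287 and 349 in flox libraries. Of 7 KO libraries 5 lay below every flox library and 1 above the flox median, and the log2 difference was -0.44 ± 0.12 (SE) (limma adjusted p = 0.0377). After the GC trend was removed it was -0.07 and no longer called. Of its exon bases 32.9% lie opposite exons of Hip1r. Vps37c, another ESCRT-I subunit, also fell, with a log2 difference of -0.25 ± 0.07 (SE) (limma adjusted p = 0.0305), and stood at 0.12 after the GC trend was removed. Vps4a, the ATPase that takes ESCRT apart, had -0.22 ± 0.07 (SE) and was not called by limma (adjusted p = 0.0592). Vps18, a core subunit of the HOPS and CORVET tethers, and Vps26b, a retromer subunit, were not called either, at -0.29 ± 0.09 (SE) (limma adjusted p = 0.0558) and -0.23 ± 0.08 (SE) (limma adjusted p = 0.0729). None of the 5 GARP and EARP tether genes was listed.

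Sorting nexins, membrane-binding adaptors of endosomes, split by direction as the p24 family did, with 2 of the 4 listed genes higher and 2 lower, out of 28 annotated. Snx2 (chr18:53176365-53220860, plus strand) and Snx5 (chr2:144250123-144270906, minus strand), which belong to the membrane-bending SNX-BAR group that pairs on retrograde carriers, both rose. Snx2 had 663, 715 and 821 normalised counts in KO libraries, against 507, 582 and 656 in flox libraries, with no overlap, and a difference of 0.29 ± 0.07 (SE) (limma adjusted p = 0.0204). Snx5 had 1034, 1119 and 1491 in KO libraries and 863, 963 and 1127 in flox libraries, and 3 KO libraries lay above every flox library. Its difference was 0.27 ± 0.08 (SE) (limma adjusted p = 0.0465). After the GC trend was removed, Snx2 stood at -0.08 and Snx5 at 0.01. Snx20 (chr8:88626563-88636128, minus strand), which binds the selectin ligand PSGL-1 in leukocytes, fell: it had 977, 1082 and 1499 in KO libraries and 1049, 1902 and 2463 in flox libraries. Only 1 KO library was below every flox library, and the difference was -0.54 ± 0.15 (SE) (limma adjusted p = 0.0418). Snx17, which returns receptors of the LDL receptor family to the surface, fell with a log2 difference of -0.26 ± 0.06 (SE) (limma adjusted p = 0.0217).

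Of the 8 members outside both classes, 7 were lower in KO and Sec11c was higher. Sec14l2 (chr11:4097039-4123415, minus strand), which binds tocopherol and other lipids and carries the Sec prefix by its yeast relative, had the largest fall of the 38. It had 2727, 3330.4 and 4252 normalised counts in KO libraries, against 4286, 5158 and 6972 in flox libraries, with no overlap, a log2 difference of -0.69 ± 0.11 (SE) that was 1.61-fold lower in KO (limma adjusted p = 0.00396). Sec11c (chr18:65800549-65817665, plus strand), a catalytic subunit of signal peptidase at the ER, had 691, 799.7 and 895 in KO libraries and 527, 643 and 732 in flox libraries. It was the only 1 of 8 annotated translocon and signal peptidase genes to be listed, and rose with a log2 difference of 0.33 ± 0.08 (SE) (limma adjusted p = 0.0183), against 0.12 after the GC trend was removed, where limma did not call it. Rab5if (chr2:156863128-156873563, plus strand), an ER membrane protein, had 533, 651 and 698 in KO libraries and 681, 868 and 930.1 in flox libraries and fell with a log2 difference of -0.36 ± 0.08 (SE) (limma adjusted p = 0.0136), with 25.5% of its exon bases opposite Sla2. Rab40c (chr17:25882114-25919727, minus strand), a Rab with a SOCS box, had 242, 264 and 289 in KO libraries and 257, 317 and 437 in flox libraries and fell with a log2 difference of -0.34 ± 0.10 (SE) (limma adjusted p = 0.044). Vps72, which belongs to chromatin-remodelling complexes and not to trafficking, fell with a log2 difference of -0.35 ± 0.10 (SE) (limma adjusted p = 0.0407). Arfip2, an Arf-binding protein of the trans-Golgi, fell with a log2 difference of -0.26 ± 0.08 (SE) (limma adjusted p = 0.0415). Rab8a, which carries apical membrane proteins to the microvilli, and Snx19, which ties endolysosomes to the ER, were not called, at -0.25 ± 0.09 (SE) (limma adjusted p = 0.0787) and -0.28 ± 0.09 (SE) (limma adjusted p = 0.0579).

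Set side by side, the ER to Golgi and endosomal genes had the same split of directions. As many of each were listed, but the ER to Golgi genes were a larger share of those annotated and had a higher median level, and neither difference was tested. Of 54 annotated ER to Golgi genes 15 (27.8%) were listed, and of 90 endosomal genes 15 (16.7%), against 2247 of 21951 annotated protein-coding genes (10.2%). Of the 16488 genes that the authors adjusted over 14.8% were listed. How many of the unlisted genes of each class were among these is not known here. ER to Golgi genes had a median mean level of 2337 normalised counts and endosomal genes of 866. Among all listed genes, direction followed abundance. Below a mean of 50 normalised counts 46 of 482 listed genes (9.54%) were lower in KO. From 50 to 200 this was 82 of 509 (16.1%), from 200 to 1000 it was 448 of 679 (66.0%), and from 1000 up it was 712 of 768 (92.7%). Of the members, 0 of 1 was lower below 50, 1 of 3 from 50 to 200, 12 of 15 (80.0%) from 200 to 1000 and 18 of 19 (94.7%) from 1000 up. The class shares in these ranges were 10 of 10 ER to Golgi and 6 of 7 endosomal genes from 1000 up, and 1 of 2 ER to Golgi and 6 of 7 endosomal genes from 200 to 1000. From 1000 up the share of members that were lower was thus near that of all listed genes, and from 200 to 1000 it was higher, over 15 genes and with no test.

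**Figure D3:**
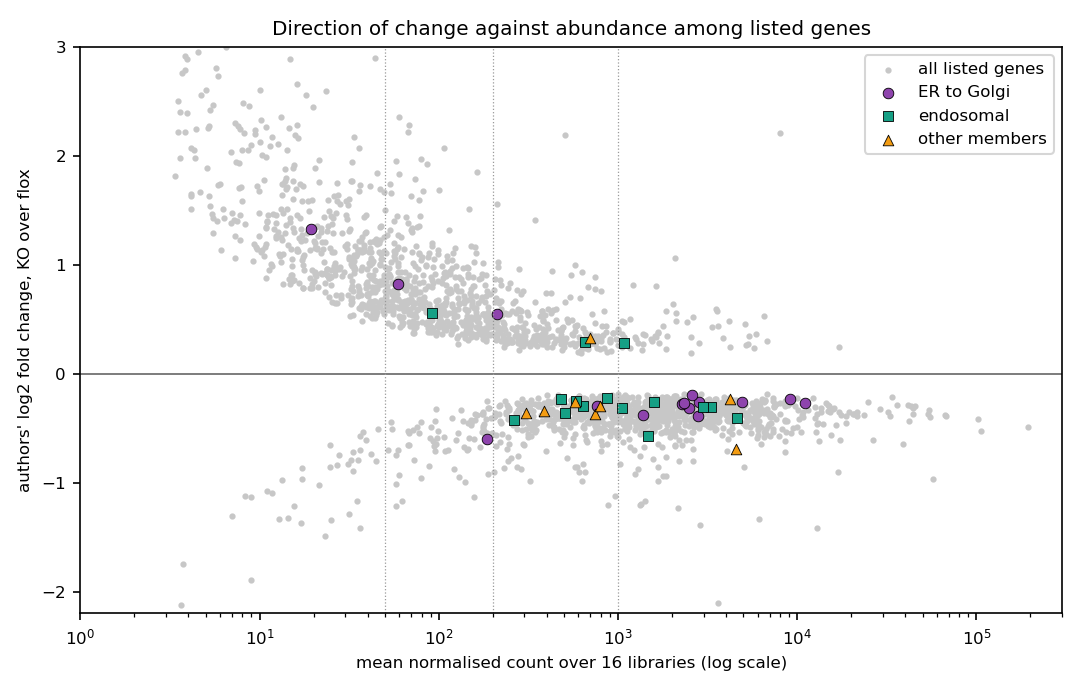
Log2 fold change from the authors' deposited table, KO over flox (y axis, cropped at -2.2 and 3) against the mean normalised count over 16 libraries (x axis, log scale), with 51 listed genes outside the plotted range. Grey points are all listed genes, coloured points the members by class, and dotted lines mark means of 50, 200 and 1000. Rare listed genes lie mostly above 0 and abundant ones mostly below it, and the members sit among them.

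In each library, the median over the genes of a class of the log2 deviation from the gene's own mean gave a class level. Because all these genes were listed for differing between these groups, the separation of the groups is fixed in advance and is a description. For ER to Golgi genes the levels ran from -0.29 to -0.02 in KO libraries (median -0.09) and from 0.01 to 0.26 in flox libraries (median 0.10). For endosomal genes they ran from -0.25 to -0.03 in KO libraries (median -0.11) and from -0.02 to 0.26 in flox libraries (median 0.07). KO replicate 1 was lowest in both classes. Within a library, the ER to Golgi level minus the endosomal level was -0.09 to 0.09 in KO libraries (median 0.00) and -0.06 to 0.12 in flox libraries (median 0.04), so the ranges of the groups overlapped. KO replicate 1 was the lowest KO library for 14 of the 31 lower members and the highest for 5 of the 7 higher members. It also had the highest non-epithelial marker sum, 2946, and the lowest epithelial marker sum, 381250. Flox replicate 2, which had the highest non-epithelial sum of the flox libraries, 1634, was the lowest flox library for 8 of the 31 lower members and the highest for 5 of the 7 higher ones. KO replicate 8 had the next highest non-epithelial sum, 2037, but the highest KO epithelial sum, 623138. It was the lowest KO library for 0 of the 31 and the highest for 0 of the 7. Flox replicate 6 had the lowest flox epithelial sum, 581734, and was lowest for 4 of the 31 and highest for 0 of the 7. The matching counts over all listed genes are not given here. The part of these cell markers in the differences was not tested. The covariate above held only listed non-epithelial markers, all higher in KO, and cannot separate them from the groups.

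**Figure D4:**
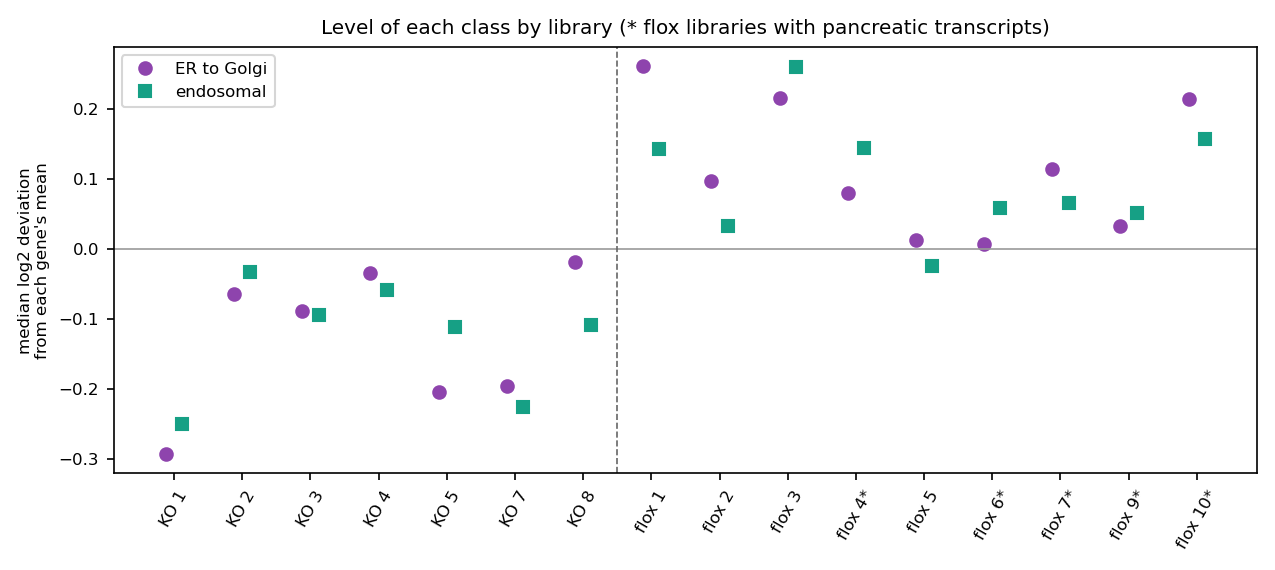
Median log2 deviation from each gene's mean (y axis) of the 15 ER to Golgi genes (circles) and the 15 endosomal genes (squares) in each library (x axis), KO libraries left of the dashed line and flox libraries right of it. Asterisks mark the 5 flox libraries with pancreatic transcripts. KO replicate 1 is lowest in both classes, and flox replicates 1 and 3 are the highest for one class each.

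Other genes of the same routes came from lists not chosen by prefix. Of 64 other ER to Golgi genes 11 were listed (17.2%), 10 lower and 1 higher, and limma called 6 of them, 5 lower and 1 higher, with a median difference of -0.28. Bcap29, an ER chaperone-like cargo protein, rose with a log2 difference of 0.70 ± 0.21 (SE) (limma adjusted p = 0.0458), while Golga2, a Golgi matrix protein, fell with a log2 difference of -0.31 ± 0.08 (SE) (limma adjusted p = 0.0342). Bet1l, a Golgi SNARE, had -0.33 ± 0.11 (SE) and was not called by limma (adjusted p = 0.0772). Of 79 other endosomal genes 11 were listed (13.9%), 9 lower and 2 higher, and limma called all 9 lower ones, with a median of -0.36. Chmp6, an ESCRT-III subunit, fell with a log2 difference of -0.45 ± 0.09 (SE) (limma adjusted p = 0.0113). Ehd1, a recycling ATPase, and Hook2, a dynein adaptor, fell with -0.38 ± 0.10 (SE) (limma adjusted p = 0.0238) and -0.36 ± 0.09 (SE) (limma adjusted p = 0.0195). Ehd3, a relative of Ehd1, had 1.25 ± 0.46 (SE) and was not called (limma adjusted p = 0.103). These shares stand against 10.2% of annotated protein-coding genes listed, and against 14.8% of the 16488 genes that the authors adjusted over. The 17.2% and 13.9% lie on either side of the latter. The calls stand against 54.3% of listed genes called in the same fit, 35.1% lower. Without the 5 flox libraries with pancreatic transcripts, limma called 0 of the 11 genes of either list, against 0.47% of all listed genes. In that fit 9 ER to Golgi and 8 endosomal ones had an unadjusted p under 0.05, as did 1708 of 2341 listed genes. Of 24 ER stress genes only Trib3 was listed, and it fell with a log2 difference of -0.37 ± 0.11 (SE) (limma adjusted p = 0.0461). Without those 5 flox libraries Trib3 stood at -0.32, and its unadjusted p from limma was not under 0.05. None of the other 23, which include chaperones and sensors of unfolded protein, was listed, so no difference of theirs was analysed here.

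Base composition went with direction. The median GC content was 46.4% for the 7 higher members and 52.4% for the 31 lower ones, against 45.4% and 54.7% for all listed higher and lower genes. For ER to Golgi genes it was 46.4% in the higher and 52.7% in the lower, and for endosomal genes 45.2% and 54.1%. Tmed5, with 35.0% GC, and Snx2, with 42.8%, turned lower once the GC trend was removed, while Rab1b, Arf6, Vps18 and Vps37c turned higher. With the GC trend of each library removed, 11 of the 12 lower ER to Golgi genes and 9 of the 12 lower endosomal genes stayed lower, and limma called 2 and 1, against 15.3% of all listed genes. That trend was fitted to listed genes alone, whose direction goes with GC content, so it holds part of the difference between the groups. Smaller or reversed differences after its removal were therefore partly fixed in advance. Some differences grew instead: Tmed10 went from -0.20 to -0.54, Vps72 from -0.35 to -0.62 and Rab5if from -0.36 to -0.47. Tmed4 went from -0.26 to -0.37 and Rab5b from -0.30 to -0.40, while 6 members reversed. Of the 23 members called before the trend was removed 6 were still called, Arfip2, Rab11fip1, Rab5if, Sec14l2, Tmed10 and Vps72, and 17 were not, while Tmed4 was called in addition. Among those 17, Arf1 stood at -0.17, Arf3 at -0.16, Arfgap1 at -0.16, Rab5c at -0.22, Sec22c at -0.36, Rab40c at -0.15, Snx17 at -0.09 and Snx20 at -0.55. Of 38 promoter windows of 30 members, searched on both strands, CACGTG was in 3 of 22 ER to Golgi windows (13.6%) and 1 of 10 endosomal windows, against 7.15% of all 32851 windows and 9.06% of those of listed genes. CCACG was in 14 of 22 ER to Golgi windows (63.6%) and 6 of 10 endosomal windows, against 32.8% of all windows and 47.0% of those of listed genes. The full ER stress response element, a CCAAT box 9 bases before CCACG, in 0.119% of all windows, was in none of the 38. TGACGTGG, whose reverse complement begins with CCACG, was in 2 windows, both of Arf1, against 0.676% of all windows. A match describes these letters only.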

How the data were processed

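Messenger RNA was purified with poly-T beads from duodenal epithelium and prepared with an NEBNext Ultra RNA kit, as the labels' protocols state. The submitters' processing notes name the GRCm38 (mm10) build, the aligner HISAT2 (2.0.5), the counter featureCounts (1.5.0-p3) and the model DESeq2 (1.20.0), without settings. The signal the authors deposited is the number of reads of a gene over the library's size factor (0.878 to 1.38), and 100% of the values came out as whole reads within a tolerance of 0.0001 reads. A check of this recovery could not mark KO replicates 1 and 3, so count models were also run without them. The deposited log2 fold changes are of KO over flox, and the deposited p-values were adjusted by the authors over 16488 genes, with 0.0497 as the largest adjusted p-value kept. The normalised counts are relative to all genes of a library, while the other scalings tried used listed genes only.

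Libraries were grouped by the genotype in the labels. Nothing in the labels says that each came from its own mouse, although the numbers of libraries equal those of mice in the design text, so p-values may measure technical spread. limma 3.58.1 (R 4.3.3) was fitted with a mean trend and robust moderation to log2(normalised count + 1) for 2339 listed genes, those averaging 10 or more, with two-sided p-values and Benjamini-Hochberg adjustment over 16488 genes, unlisted ones being set to a p of 1. A difference on this scale understates the change of rare genes. edgeR 4.0.16 and DESeq2 1.42.0 were run on recovered reads, and all 3 were checked on simulated counts.

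Roles and lists were written from textbook knowledge, and the members and lists were chosen with earlier results of these data known. Values over libraries are given for the 10 most raised and the 10 most lowered members by the deposited log2 fold change (only 7 were raised), for the 5 highest per kilobase of the deposited gene length, and for COPII, COPI and p24 genes, with the 4 largest changes of each pathway list, of which 1 gene is not reported here. Exon overlaps come from the GENCODE M21 annotation, in which all 38 members were found and 34 had the same coordinates. Numbers that occur in both groups do not pair the libraries. Recovered reads of any pair of libraries of a group gave a chi-square per degree of freedom of at least 16.7, so none was a duplicate.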

Additional observations from a re-analysis of the deposited data

Results flagged for a closer look

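In 4 of 82 groups checked, 1 library stood apart from the others of its group by Dixon's test at the 95% level, and chance gives about 1 in 20. Sec31a had 12390.0 normalised counts in flox replicate 1, and Rab11fip4 had 844 in flox replicate 4. Rab12 had 186 and Ephb4 had 84.7 normalised counts in KO replicate 1, the KO library with the highest non-epithelial marker sum.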

How the results depend on the processing

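Of 1178 values of single members under 31 alternatives, 1170 kept their direction, and 30 of the 38 members never reversed. Reversals came with the GC trend removed (Rab1b 0.031, Arf6 0.19, Vps18 0.081, Vps37c 0.12, Snx2 -0.077, Tmed5 -0.073) and with the non-epithelial marker level as a covariate (Tmed8 -0.49, Rab6b -0.24). The cause was not tested. Counts of calls are given in the order all listed genes, ER to Golgi, endosomal, beside 1269, 8 and 9 with limma. Rescaling on listed genes moved the median of all listed genes by 0.14 (TMM) and 0.10 (median of ratios). TMM gave 912 (723 higher and 189 lower, against 449 and 820), 1 (higher) and 4 (3 higher, 1 lower), with medians of -0.12 and -0.15. Median of ratios gave 976, 2 (1 higher, 1 lower) and 3 (2 higher, 1 lower), with medians of -0.17 and -0.19. edgeR gave 1315, 8 and 9, and DESeq2 gave 2239, 14 and 15. Without KO replicates 1 and 3, edgeR gave 385, 2 and 3, and DESeq2 gave 1212, 7 and 7. Leaving out flox replicate 10, the only library that the pancreatic list as first set picks out, gave 646, 4 and 5. Leaving out the 5 flox libraries, an alternative added after seeing the data, gave 11, 0 and 0. Leaving out KO replicate 7 as well, added later too, gave 7, 0 and 0, and Ephb4 stood at -2.09 (limma adjusted p = 0.103). The marker covariate gave 7, 0 and 0, with medians of -0.15 and -0.13. Removing the GC trend, fitted to listed genes alone and also added later, gave 359, 2 and 1, with medians of -0.16 and -0.089. Leaving out 1 library gave 518 to 1462 calls in all, 2 to 9 ER to Golgi, 3 to 11 endosomal, medians of -0.28 to -0.23 and -0.31 to -0.26, and -2.73 to -2.40 for Ephb4. Replicate numbers shared by both groups did not pair the libraries (correlations of deviations -0.43 to 0.37, only number 3 matching best with its own). With the replicate block on those libraries, limma called 9, 0 and 0 (unadjusted 1797 of 2340 listed genes, and 12 and 13 of the classes), and Ephb4 stood at -2.30 (limma adjusted p = 0.0651). Without the block the same libraries gave 355, 0 and 1. Total depth is unknown, so no floor is given.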
